A study of Mus musculus with 10 samples.

Results

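The genes described here build the hair shaft and the inner root sheath of the mouse hair follicle, together with 7 regulators of the hair matrix. The rule takes them by name, 28 genes named in a list and every keratin-associated protein (Krtap) gene found in at least 1 file; the list was drawn up with earlier results of these data known. The rule names 58 genes, of which 57 were listed in at least 1 file, among 17983 genes in all; Krt85 was not analysed here. By class they are 8 genes of the inner root sheath (7 keratins and trichohyalin), 12 genes of the shaft (11 keratins and S100a3), 7 matrix regulators and 30 Krtap genes.

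RNA was sequenced from keratinocytes of mouse back skin epidermis, separated from the dermis with dispase and freed with trypsin, in 10 libraries. Controls, labelled wild type, gave 3 libraries after rubbing with acetone and olive oil (4:1; olive oil/acetone below) and 2 after rubbing with water. Knockouts, labelled Gsdma1KO/KO;Gsdma3fx/fx;K14-Cre, gave 3 libraries under olive oil/acetone and 2 under water. All skin was rubbed 2 times a day for 3 days and taken on day 5. The labels give no age. K14-Cre acts in basal keratinocytes of the epidermis and the follicle and in their descendants, which limits loss of the floxed Gsdma3 to the epithelium; the Gsdma1 alleles are labelled KO. Whether the libraries of a group are separate mice is not in the labels, and the spread behind each p-value may therefore be technical. The aim, as the series title puts it, was to see how loss of both gasdermins alters gene expression after a treatment that disrupts the epidermal barrier.

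A growing hair is made by matrix cells at the base of the follicle, around the dermal papilla. Matrix cells that stop dividing become either hair shaft, which fills with hair keratins cross-linked to cysteine-rich or glycine- and tyrosine-rich keratin-associated proteins, or inner root sheath, which moulds the shaft and is hardened by its own keratins and by trichohyalin. LEF1 with Wnt signals, HOXC13, FOXN1, MSX and DLX factors and the secreted ligand SHH guide these choices. In a resting follicle this machinery is shut down, and adult back skin follicles pass through growth and rest in patches.

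The promoters of the structural genes have a shared sequence feature that the rule did not use, and the sequences below are shown because the genes they belong to moved together between libraries (below), with genes that did not as a contrast. They are the 100 bases before the annotated start, read 5′ to 3′ on the gene's strand, from RefSeq on GRCm38.p6. Capitals mark TATAAA (the TATA box) and CTTTGA (the core of sites bound by LEF and TCF factors), each searched on both strands; on the opposite strand they read TTTATA and TCAAAG. The 2 motifs do not overlap each other here, and where a TATAAA on one strand runs into one on the other, the capitals join. Krt71 (chr15:101743098-101743197, minus strand), Krt25 (chr11:99322952-99323051, minus) and Krt28 (chr11:99374904-99375003, minus) are keratins of the inner root sheath. Krt31 (chr11:100050552-100050651, minus) is a shaft keratin, and Krtap8-1 (chr16:89487953-89488052, minus) and Krtap1-5 (chr11:99581017-99581116, minus) are keratin-associated proteins. Krt32 (chr11:100088270-100088369, minus), a hair cuticle keratin, and Foxn1 (chr11:78386609-78386708, minus) are the 2 members called in a comparison below.
Krt71: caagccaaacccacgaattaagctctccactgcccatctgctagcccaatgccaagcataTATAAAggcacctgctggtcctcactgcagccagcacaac
Krt25: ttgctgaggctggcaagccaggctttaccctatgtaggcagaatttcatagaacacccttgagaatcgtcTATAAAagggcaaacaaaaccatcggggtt
Krt28: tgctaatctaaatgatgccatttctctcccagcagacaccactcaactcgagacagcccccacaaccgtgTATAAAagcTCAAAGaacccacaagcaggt
Krt31: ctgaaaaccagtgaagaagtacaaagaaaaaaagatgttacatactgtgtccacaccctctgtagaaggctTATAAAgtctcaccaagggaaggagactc
Krtap8-1: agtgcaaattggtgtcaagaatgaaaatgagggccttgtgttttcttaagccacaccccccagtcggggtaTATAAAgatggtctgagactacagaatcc
Krtap1-5: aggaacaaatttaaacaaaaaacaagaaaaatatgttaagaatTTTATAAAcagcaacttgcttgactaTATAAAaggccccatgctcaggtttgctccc
Krt32: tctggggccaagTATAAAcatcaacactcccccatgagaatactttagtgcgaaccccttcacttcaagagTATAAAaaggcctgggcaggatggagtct
Foxn1: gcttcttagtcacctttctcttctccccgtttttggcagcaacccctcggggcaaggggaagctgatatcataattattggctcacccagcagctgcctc

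Windows of 300 bases (250 before to 50 after the start) were matched by symbol for 46 of the 57 genes. TATAAA was found in 34 of these 46 windows (73.9%), against 14.2% of all 27025 promoters. It was in 7 of 8 windows of inner root sheath genes, 5 of 7 of shaft genes, 22 of 27 of Krtap genes and 0 of 4 of regulators (Foxn1, Lef1, Msx1 and Msx2). CTTTGA was found in 18 of 46 windows (39.1%), against 16.2% of all promoters, and again in 0 of the 4 regulators. Krtap genes arose by tandem duplication, so these windows are not independent. Krt32, whose level did not follow that of Krt31 and Krtap8-1, has a TATA box at the same distance of 29 bases before the start. A match is a description of letters, not of a bound factor.

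Of the 57 genes, 51 had their highest value in control water replicate 2, including all 8 inner root sheath genes, 11 of 12 shaft genes, 29 of 30 Krtap genes and 3 of 7 regulators. For 23 of the Krtap genes this follows largely from how the set was made. They are members only because the water files list them, and they had at most 2 reads in any other water library. The 51 is therefore a description, and no share over all listed genes was computed for it. Of the 24 members tested, 18 were highest in that library, against 6.98% of all 15958 genes tested. The other water library of the same group had some of the lowest values. Of the same 24, 17 had their second highest value in knockout olive oil/acetone replicate 2; the files of that group do not list the other structural genes except Krt84. Comparisons that use the control water group therefore rest, for most structural genes, on 1 library.

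All 10 libraries were alike in depth, with 15914663 to 21812292 reads. Basal keratinocyte markers were high in all 10, with Krt5 at 211026 to 396203 and Krt14 at 156510 to 320163 normalised reads. The target gene Gsdma3 was at 68.7, 63.1 and 177 in the controls under olive oil/acetone and 62.5 and 283 under water, against 0, 0.898 and 0 in the knockouts under olive oil/acetone and 2.65 and 0 under water, as labelled. Gsdma, the gene called Gsdma1 in the labels, still gave 170.2 to 843 normalised reads in the knockouts, against 199.9 to 732 in the controls; the deleted part is not known here and reads could be shared with Gsdma3, so this checks nothing. Reads of 4 Y-linked genes were 3966 to 4988 in each olive oil/acetone library and 0 in each water library, so treatment and the sex of the source mice cannot be told apart. The files list 16014 (control) and 16557 (knockout) genes under olive oil/acetone but 17916 and 17983 under water, so 25 members appear in the water files alone and 24 appear in all 10. All 24 passed the filter on low values (10 or more in at least 2 libraries); many passed it through the libraries where they were high. In bulk samples, fewer cells of a type and less RNA per cell cannot be told apart.

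The keratins of the inner root sheath showed the widest range. Values are normalised read counts, divided by a factor per library (0.995 to 1.004), in replicate order, and 0 reads allows a value of up to 2.65 to 3.65 depending on the library. Krt71 (ENSMUSG00000051879, chr15:101733949-101743109), the type II keratin found in all inner root sheath layers, was at 36.8, 4.78 and 3.3 under olive oil/acetone and 0 and 3328 under water in controls, and at 36.2, 595 and 172 under olive oil/acetone and 2.65 and 1.22 under water in knockouts. The 2 control water libraries thus held the lowest and the highest value of the series. The 3 knockout olive oil/acetone libraries all lay above both knockout water libraries. Krt25 (ENSMUSG00000035831, chr11:99315516-99322951), a type I partner of Krt71, was at 34.9, 0.956 and 8.79 under olive oil/acetone and 8.65 and 1876 under water in controls, and at 19.7, 335 and 132 under olive oil/acetone and 10.6 and 10.9 under water in knockouts. Krt27, another type I partner, was at 9.96, 4.78 and 8.79 under olive oil/acetone and 2.88 and 1306 under water in controls, and at 11.4, 243 and 51.9 under olive oil/acetone and 6.17 and 1.22 under water in knockouts. In both, control water replicate 2 stood over 5 times above the next library, and knockout olive oil/acetone replicates 2 and 3 came next.

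Krt28 and Krt73, 2 further sheath keratins, had the same order of the 3 highest libraries, with 438 and 498 in control water replicate 2, 110.5 and 162 in knockout olive oil/acetone replicate 2, and 45.3 and 84.9 in replicate 3. The highest values among the other 7 libraries were 23.8 and 29, both in knockout olive oil/acetone replicate 1. Krt26 and Krt72, which the knockout olive oil/acetone files do not list, were at 126 and 349 in control water replicate 2 and at no more than 3.98 and 0.956 in the other 6 libraries that list them. Trichohyalin (Tchh, ENSMUSG00000052415, chr3:93442330-93449077), the matrix protein of the sheath and the medulla, was above 0 in every library, at 97.6, 119 and 191 in controls under olive oil/acetone and 136 and 151 in knockouts under water. It reached 3201 in control water replicate 2, against 99 in replicate 1, and was at 153, 765 and 284 in knockouts under olive oil/acetone. Per kb of exon in control water replicate 2, Krt71 had a level of 1522 normalised reads, Krt25 943, Krt27 843 and trichohyalin 550, whereas the shaft keratin Krt35 had 197.

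**Figure D1:**
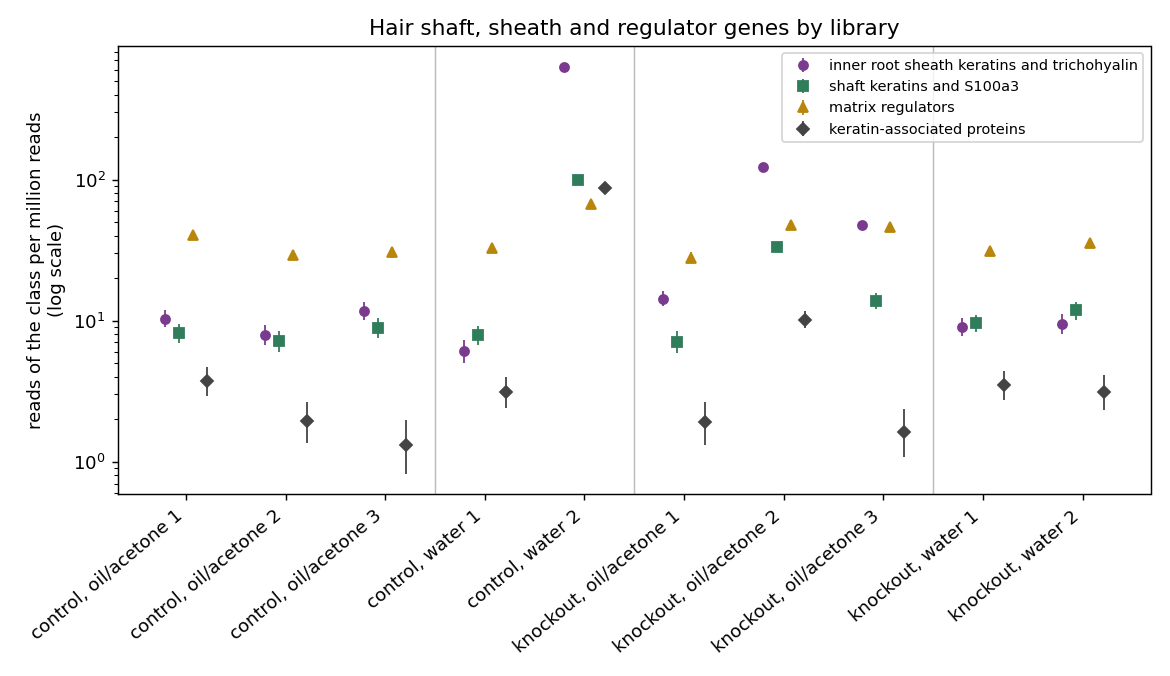
Summed reads of each gene class as RPM (scaled by each library's total) in each of the 10 libraries (log axis), with 95% Poisson intervals, which cover counting error only; each library's sum covers the genes its file lists. Control water replicate 2 has 624 RPM of inner root sheath genes, against 6.05 in replicate 1, and knockout olive oil/acetone replicates 2 and 3 have 123 and 47.5.

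The shaft keratins ran in parallel, over a smaller range. Krt35 (ENSMUSG00000048013, chr11:100092193-100096241), an early keratin of the shaft precortex, was at 11, 2.87 and 1.1 under olive oil/acetone and 6.73 and 471 under water in controls, and at 29, 207 and 45.3 under olive oil/acetone and 15 and 14.6 under water in knockouts. All 3 knockout olive oil/acetone libraries lay above all 3 controls of that treatment and above both knockout water libraries. Krt31, a keratin of the shaft cortex, was at 5.97, 6.69 and 6.59 under olive oil/acetone and 8.65 and 205 under water in controls, and at 13.5, 87.1 and 7.55 under olive oil/acetone and 9.7 and 13.4 under water in knockouts, so that only 2 libraries exceeded 13.5. Krt83, a further cortex keratin, was at 12.9, 12.4 and 6.59 under olive oil/acetone and 35.6 and 199 under water in controls, and at 13.5, 70.1 and 32.1 under olive oil/acetone and 11.5 and 17 under water in knockouts; here the lower of the 2 control water libraries still lay above all 3 controls under olive oil/acetone. Krt33a and Krt86 were at 214 and 60 in control water replicate 2, 75.4 and 33.2 in knockout olive oil/acetone replicate 2, and at no more than 13.2 and 6.6 elsewhere. S100a3, a calcium-binding protein of the hair cuticle, was at 250.1, 56.6 and 29.2 in the 3 highest libraries and at no more than 10.3 in the others. Its annotated exons overlap those of Gm42674 on the same strand, so its reads are uncertain. S100a2 overlaps the gene but not its exons.

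The other 5 shaft keratins, each missing from at least 1 group's files, were also highest in control water replicate 2. Krt33b was at 77.8 there and at 0 in the other 6 libraries that list it. Krt81 was at 85.3, Krt34 at 38.4, Krt84 at 33.7 and Krt82 at 24.4, and none exceeded 9.88 in any other library listing it.

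Krt32 (ENSMUSG00000046095, chr11:100080848-100088226) was the exception among the shaft keratins. It was at 121, 90.8 and 133 under olive oil/acetone and 90.3 and 105 under water in controls, and at 57.9, 60.2 and 80.2 under olive oil/acetone and 135 and 152 under water in knockouts. The lowest 3 of the 10 values were the 3 knockout olive oil/acetone libraries, and control water replicate 2 lay in the middle. Krt32 shares exon sequence with Gm11571, an antisense gene that the files list; with the strand setting not given in the sources used here, reads of the pair cannot be told apart.

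**Figure D2:**
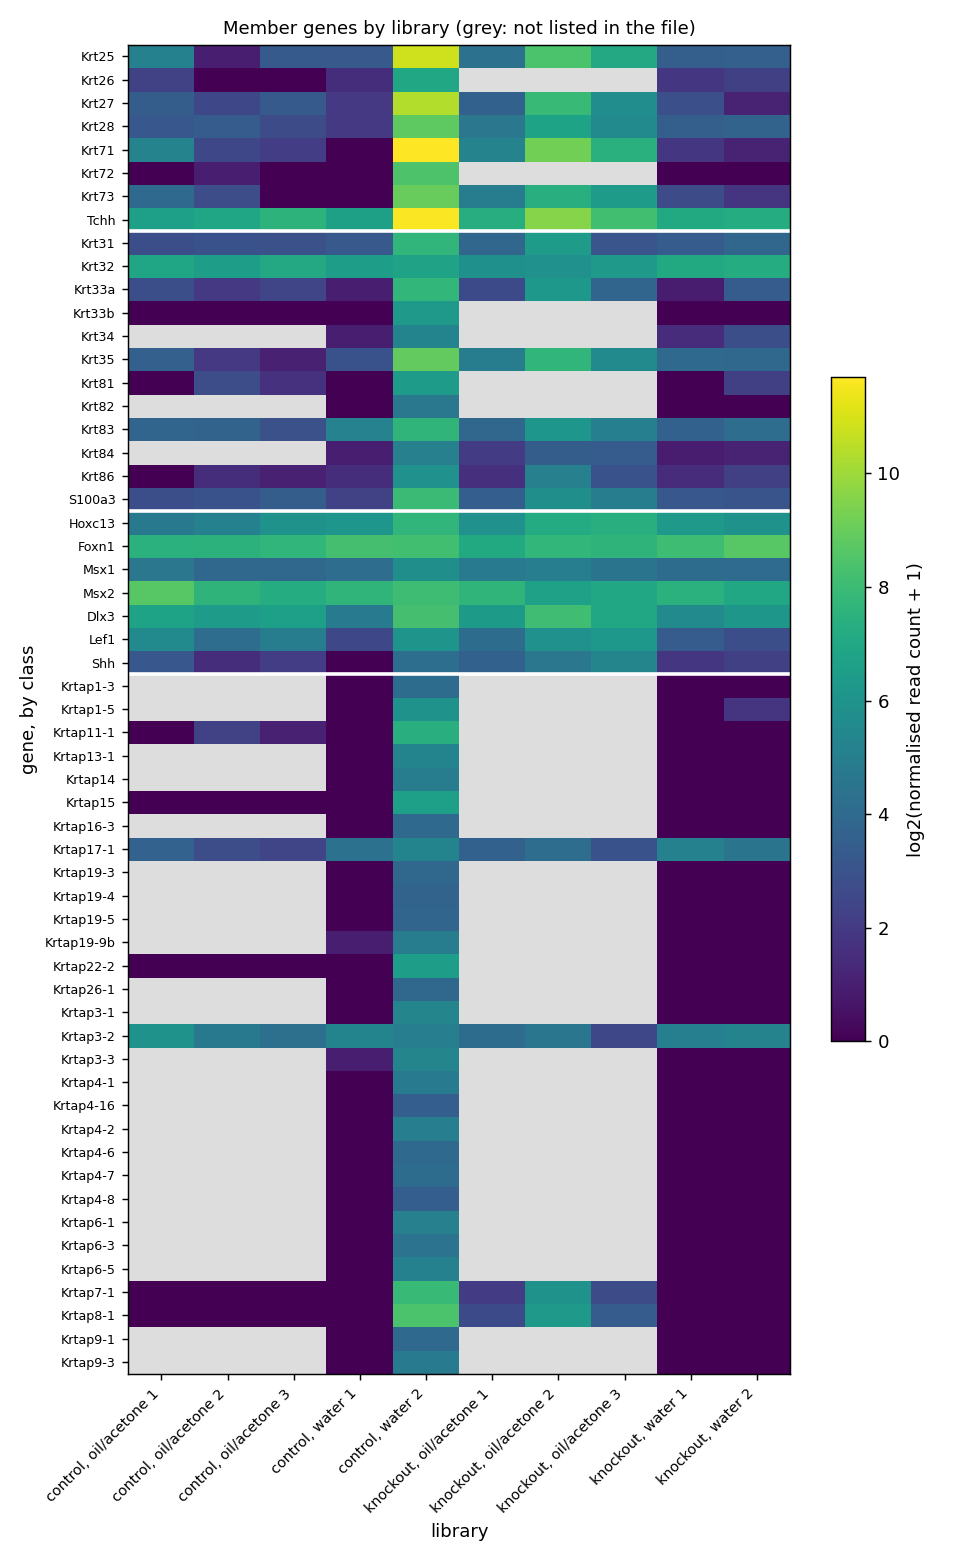
Normalised read count of each of the 57 genes (rows, by class, separated by white lines) in each of the 10 libraries (columns), as log2(value + 1); grey cells are genes that a file does not list. The column of control water replicate 2 is the brightest in 51 rows, and most Krtap genes are at 0 in the other 3 water libraries.

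The Krtap genes, which encode the proteins that embed hair keratin filaments, lay in clusters on chromosome 11 (14 of 23 annotated genes in the files) and chromosome 16 (16 of 25). Of the 30, 23 were listed in water files alone, and 20 of these had 0 reads in the other 3 water libraries. In control water replicate 2 these 23 ranged from 10.3 (Krtap4-16) to 63.7 (Krtap1-5) normalised reads, with a median of 20.6. The 2 names are the ends of the range and were chosen after the values were seen. Members of the Krtap4, Krtap6 and Krtap19 groups have near-identical copies, and counts of single genes are uncertain where the counting could split reads between them.

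Of the 4 Krtap genes listed in all 10 files, 2 followed the keratins. Krtap8-1 (ENSMUSG00000059632, chr16:89487379-89487952), a glycine- and tyrosine-rich protein, was at 0 in all 3 controls under olive oil/acetone, at 0 and 333 in controls under water, at 5.17, 79 and 9.44 in knockouts under olive oil/acetone and at 0 in both knockouts under water. Krtap7-1, its neighbour and of the same kind, was at 0 in the same 6 libraries, at 237 in control water replicate 2 and at 3.1, 62.9 and 5.66 in knockouts under olive oil/acetone. For both genes, reads were thus found in 4 of 10 libraries. Krtap11-1, Krtap15 and Krtap22-2, named after their values were seen and not listed under olive oil/acetone in knockouts, were at 162, 95.6 and 90.9 in control water replicate 2 and at most 3.82 elsewhere. Krtap17-1 and Krtap3-2 had another pattern: Krtap17-1 was at 20.2 and 38.4 (controls) and 34.4 and 21.9 (knockouts) under water against 11.9, 5.73 and 4.39 (controls) and 11.4, 17.1 and 6.6 (knockouts) under olive oil/acetone, and Krtap3-2 was highest, at 62.7, in control olive oil/acetone replicate 1.

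The regulators varied less than most structural genes. Hoxc13 (ENSMUSG00000001655, chr15:102921103-102928814), a homeobox activator of hair keratin genes, was at 25.9, 34.4 and 62.6 under olive oil/acetone and 69.2 and 205 under water in controls, and at 59, 146 and 161 under olive oil/acetone and 76.7 and 62 under water in knockouts. Dlx3, a homeobox factor needed for hair differentiation, was at 111, 86 and 95.6 under olive oil/acetone and 26.9 and 306 under water in controls, and at 82.8, 275 and 127 under olive oil/acetone and 46.7 and 71.8 under water in knockouts, and Msx1 was at no more than 31.4 outside control water replicate 2, where it was at 56.2. These 3 were highest in the same library as the keratins.

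Lef1, the nuclear partner of beta-catenin in matrix cells, was at 47.8, 17.2 and 29.7 under olive oil/acetone and 4.81 and 66.5 under water in controls, and at 16.6, 60.2 and 75.5 under olive oil/acetone and 9.7 and 6.08 under water in knockouts. Shh, the matrix ligand, was at 7.97, 1.91 and 3.3 under olive oil/acetone and 0 and 17.8 under water in controls, and at 11.4, 24.3 and 38.7 under olive oil/acetone and 2.65 and 3.65 under water in knockouts. Both were highest in knockout olive oil/acetone replicate 3 and not in control water replicate 2. Exons of both overlap exons of genes on the opposite strand. With the strand setting not given, their reads are uncertain. Msx2 was highest, at 410.3, in control olive oil/acetone replicate 1 and between 102 and 264 elsewhere. Foxn1 (ENSMUSG00000002057, chr11:78357577-78386558), the activator lacking in nude mice, was at 177, 182 and 208 (controls) and 139, 211 and 197 (knockouts) under olive oil/acetone and at 302 and 281 (controls) and 265 and 400.2 (knockouts) under water. All 6 olive oil/acetone libraries lay below all 4 water libraries, a split that is also one of Y-linked reads.

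Against control water replicate 2, knockout olive oil/acetone replicates 2 and 3 held different shares of each class. In replicate 2 the medians over the tested genes of a class were 21.2% for the inner root sheath (6 genes, 17.9% to 32.4%), 42.5% for the shaft (7 genes, 22.6% to 57.4%), 35.5% for Krtap (4 genes) and 75.1% for the regulators (7 genes). In replicate 3 they were 7.96%, 11.02%, 9.05% and 70.2%. Regulators ranged from 38.8% to 136% in replicate 2 and from 38.6% to 217% in replicate 3, so their shares were higher than those of most structural genes in both libraries. The regulator median was that of Foxn1 both times, which did not follow the median log2 profile of the keratin members (Pearson r = 0.01 over 10 libraries). Foxn1, Msx2 and Dlx3 were at 26.9 or more in every library. Part of their shares is thus a level also present where structural genes were low.

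The 2 knockout libraries also differed from each other by gene. From replicate 2 to replicate 3, the ratio of levels was 0.0866 for Krt31 (95% interval 0.0364 to 0.178), 0.289 for Krt71 (0.244 to 0.341) and 0.371 for Tchh (0.324 to 0.424). It was 1.10 for Hoxc13 (0.884 to 1.37), 1.25 for Lef1 (0.895 to 1.76) and 1.60 for Shh (0.958 to 2.70). These intervals are exact binomial ones and cover counting error of 2 single libraries only, and those of Hoxc13, Lef1 and Shh include 1. Replicate 3 thus had lower levels of Krt31, Krt71 and Tchh than replicate 2, and for those 3 regulators a difference was not detectable at this depth. Not every regulator was alike, since Dlx3 had a ratio of 0.463 (0.376 to 0.569), nor every keratin, since Krt32 had one of 1.33 (0.956 to 1.86).

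**Figure D3:**
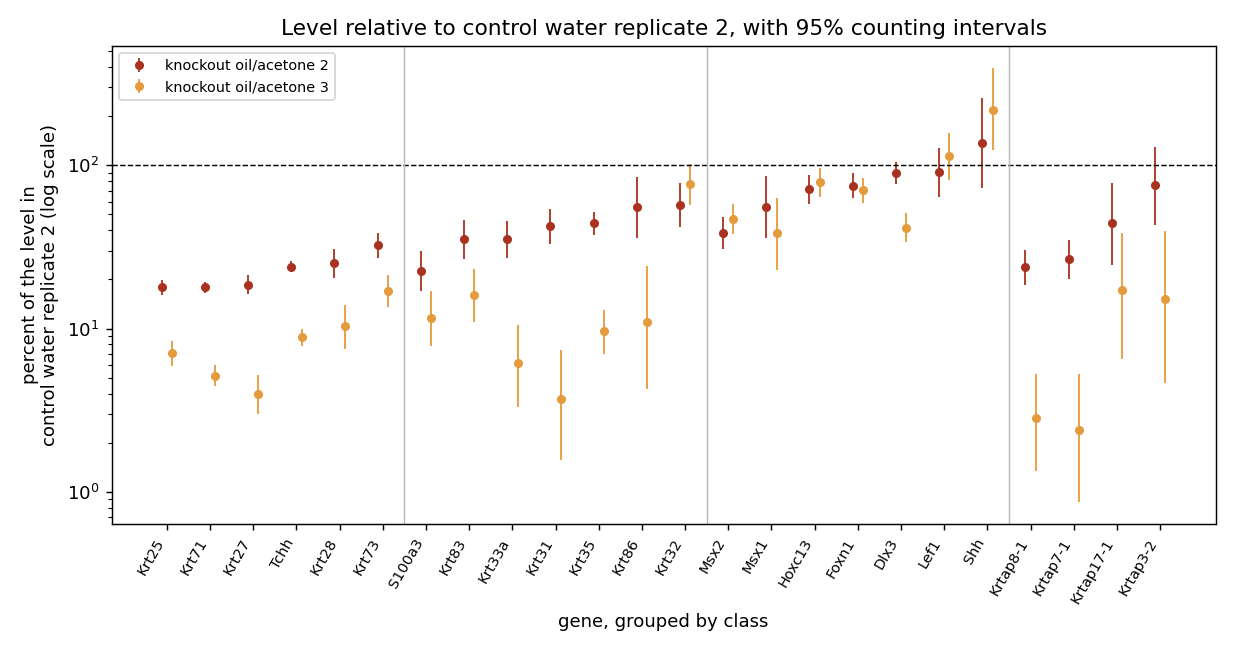
Level of each of the 24 tested genes in knockout olive oil/acetone replicates 2 (red) and 3 (orange) as a percent of its level in control water replicate 2 (log axis; dashed line at 100%), grouped by class between grey lines, with 95% counting intervals. Sheath, shaft and most Krtap genes lie below 60% in replicate 2 and, except Krt32, lower in replicate 3, and Shh and Lef1 lie near or above 100%.

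In every comparison of treatment below, the interaction included, Y-linked reads also separate the groups, so treatment and sex cannot be told apart. Olive oil/acetone against water in controls, the first comparison of treatment, gave no call among the 24 members tested (limma on log2(value + 1), Benjamini-Hochberg adjustment over all genes tested, adjusted p under 0.05). Calls were 10 of 15958 genes, or 0.0627%, by limma, with 7 by edgeR and 352 by DESeq2, of which 0 and 7 were members. An unadjusted p under 0.05 was seen for 6 of 24 members (25%) and 12.9% of all genes. Log2 differences were -2.56 (95% interval -8.26 to 3.14, adjusted p = 0.703) for Krt71, -2.11 (-4.60 to 0.39, adjusted p = 0.451) for Tchh, and -2.93 (-4.64 to -1.21, adjusted p = 0.209) for Krt83 by limma. The median over the 24 members was -2.08, beside 0.00042 over all genes. Krt83 kept its direction, at -4.15 to -1.70 with any 1 library left out. The median and the values of Krt71 and Tchh rested on 1 library. Without control water replicate 2 the median was 0.094, Krt71 was at 3.29 and Tchh at 0.39 by limma. Without replicate 1 of that group, the median was -4.70 and 2 members were called lower, Krt28 and Krtap8-1. In all, 6 members had every olive oil/acetone library below both water libraries, beside 12% of all genes tested; 1 of them was Foxn1, at -0.63 (-1.17 to -0.08, adjusted p = 0.329 by limma).

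In knockouts the same comparison, of treatment and sex together, gave 2 calls among the 24 members, both lower. Of all genes, 2143 of 15958 (13.4%) were called, so the members' share was no higher than that of all genes. Krt32 fell by 1.12 on the log2 scale (SE 0.27, adjusted p = 0.0289) and Foxn1 fell by 0.86 (SE 0.25, adjusted p = 0.0466) by limma. In both genes all 3 olive oil/acetone libraries lay below both water libraries. With libraries scaled to equal totals, which moved the median over all genes from 0.0090 to 0.13 and the calls from 1076 higher and 1067 lower to 1346 and 845, both calls were lost (adjusted p = 0.0520 and 0.0919 by limma, within 0.00208 to 0.183 and 0.0116 to 0.302 over 20 alternatives). They were also lost without any 1 of knockout olive oil/acetone replicate 2 or 3 or knockout water replicate 1 or 2 (all genes called: 431, 240, 9 and 35). Foxn1 alone was also lost with edgeR (adjusted p = 0.0514), and without knockout olive oil/acetone replicate 1 or control olive oil/acetone replicate 2.

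No member was called higher in knockouts, although 14 of 24 had higher values in every olive oil/acetone library than in either water library, beside 28.8% of all genes tested, and 4 of 24 had lower values, beside 29.2%. Log2 differences were 5.78 (0.083 to 11.5, adjusted p = 0.139) for Krt71, 2.32 (0.22 to 4.42, adjusted p = 0.113) for Lef1 and 4.11 (-0.12 to 8.35, adjusted p = 0.153) for Krtap8-1 by limma. The median was 1.51, and 0.48 without the 3 libraries with the highest member levels (an alternative chosen after seeing the data). The calls depended on which libraries gave the spread. With the spread taken from the 2 knockout groups alone, 8 of 24 members were called higher and 2 lower, beside 3830 of 15958 genes called in either direction. The 8 were Krt25, Krt27, Krt28, Krt71, Krt73, Lef1, Shh and Krtap8-1, with Krt71 at an adjusted p of 0.00767 by limma. Without control water replicate 2, which leaves 1 library in that group, the difference of Krt71 stayed at 5.78. Over 20 alternatives the adjusted p of Krt71 ran from 0.00767 to 0.369. DESeq2 called 3 members higher (Krt27, Krt71 and Lef1) and edgeR 0, beside 3610 and 1930 of all genes in either direction.

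**Figure D4:**
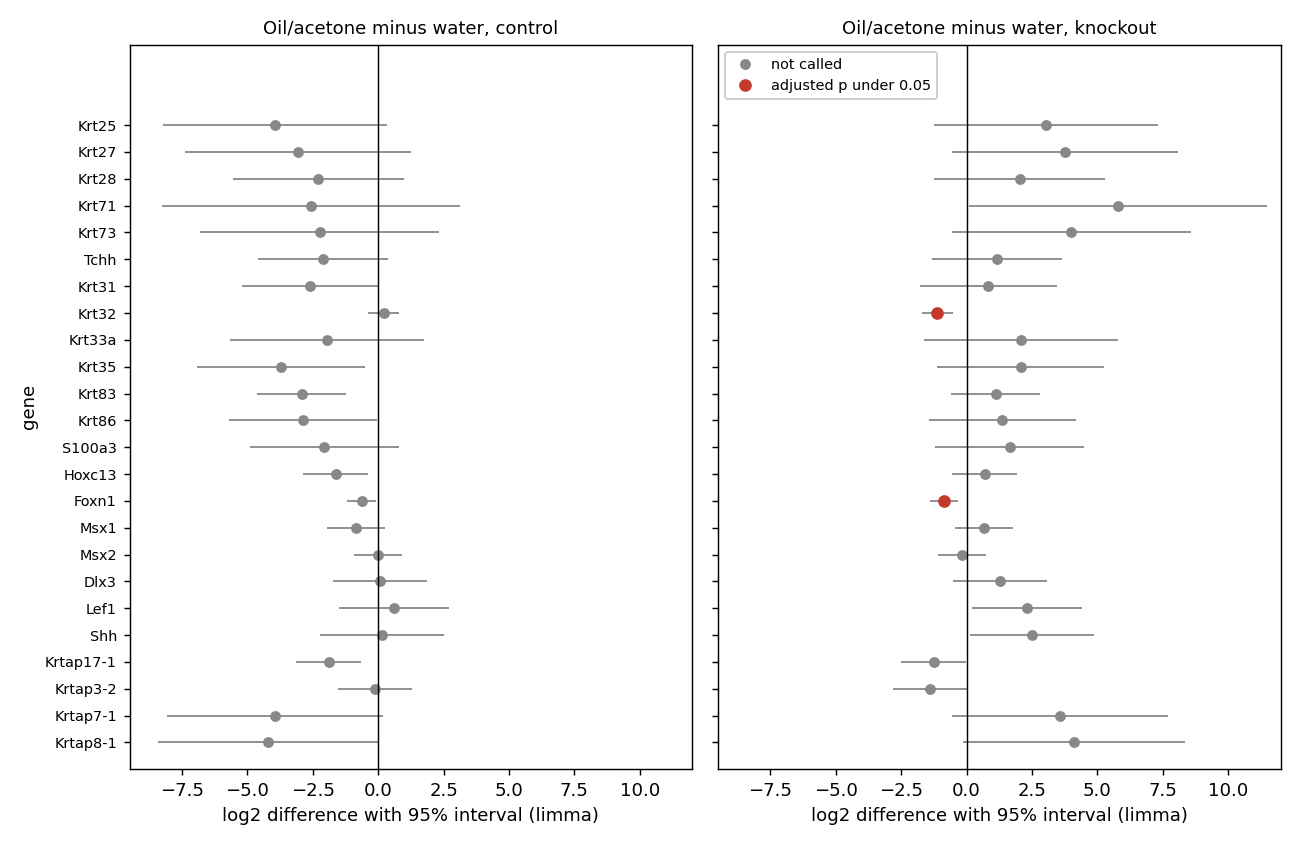
Log2 difference of olive oil/acetone minus water for the 24 tested genes in controls (left) and knockouts (right), with 95% intervals from limma; red points passed an adjusted p under 0.05. Intervals of the sheath keratins span several log2 units in both panels, and the narrow intervals of Krt32 and Foxn1 lie below 0 in knockouts. Treatment and sex cannot be told apart in either panel.

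Knockout against control under olive oil/acetone gave 0 calls among members and 0% of all genes by limma and by edgeR; DESeq2 called 168 genes and 0 members. At an unadjusted p under 0.05 were 5 of 24 members (20.8%) and 1908 of all genes (11.96%). Krt35 was higher in all 3 knockout libraries than in all 3 controls, with a log2 difference of 3.85 (0.98 to 6.72, adjusted p = 0.343 by limma), as was Krt71 in 2 of 3, with 4.00 (-1.10 to 9.09, adjusted p = 0.506 by limma). Hoxc13 differed by 1.52 (0.41 to 2.64, adjusted p = 0.335) and Krt32 by -0.79 (-1.32 to -0.26, adjusted p = 0.325) by limma. The knockout libraries lay wholly above the controls for 11 of 24 members, beside 8.55% of all genes tested. The median of 1.64 fell to 0.62 without the 3 libraries with the highest member levels.

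Knockout against control under water also gave 0 calls among members and 0% of all genes by limma and by edgeR, with 6 genes and 0 members by DESeq2. At an unadjusted p under 0.05 were 1 of 24 members (4.17%) and 795 of all genes (4.98%). Krt71 differed by -4.34 (-10.6 to 1.90, adjusted p = 0.963) and Krtap8-1 by -4.19 (-8.83 to 0.45, adjusted p = 0.963) by limma. Without control water replicate 2, Krt71 was at 1.51 and Krtap8-1 at 0, and the member median of -1.87 became 0.39.

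Whether the treatment difference itself differed between genotypes was tested by the interaction, with 0 calls among members and 0% of all genes by limma and by edgeR, and 169 genes and 9 members by DESeq2. At an unadjusted p under 0.05 were 10 of 24 members (41.7%) and 1897 of all genes (11.9%). Krt71 had an interaction of 8.34 (0.28 to 16.4, adjusted p = 0.410) and Krt83 one of 4.04 (1.62 to 6.46, adjusted p = 0.356) by limma. Without control water replicate 2 these were 2.49 and 2.81, and without replicate 1 of that group they were 14.2 and 5.26, with 9 members and 74 genes called.

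Genes outside the list moved with the keratins. Among 11944 other genes with a mean of 50 or more, the one most like the median log2 profile of the 11 keratin members listed in all files was Prr9, from the list of other shaft and sheath genes (Pearson r = 0.96 over 10 libraries). Prr9 was at 11, 0.956 and 4.39 under olive oil/acetone and 0 and 1238 under water in controls, and at 15.5, 105 and 10.4 under olive oil/acetone and 2.65 and 6.08 under water in knockouts. Among the next 11 were H2-DMa, Plcb2, Spi1, Tmem104, Pdlim4, Cd74, Shisa2, Sardh, Tyrobp and Tap2 (r = 0.92 to 0.95). H2-DMa, Cd74, Spi1 and Tyrobp are known from antigen-presenting and other myeloid cells. Cd74 was at 14538 in control water replicate 2, at 13490.0 in replicate 2 of the knockouts under olive oil/acetone, at 8891 in replicate 3 of that group and at 3674 to 7320 elsewhere. The profile is highest in the same 3 libraries, and r is given as a description over 10 points.

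Other genes of the shaft and sheath, from a list of 24 that are no members, were called in 1 of 14 tested in controls (Tgm3 higher by 2.04, adjusted p = 0.0474 by limma) and in 2 of 14 in knockouts (Tgm3 and Pinlyp higher, by 1.98 and 2.55). Over all genes tested, 0.0627% were called in controls and 13.4% in knockouts. Tgm3, a transglutaminase of the sheath and of the upper epidermis, was at 931, 1212 and 2004 (controls) and 809, 1095 and 849 (knockouts) under olive oil/acetone and 370.0 and 275 (controls) and 224 and 237 (knockouts) under water, which did not overlap and did not follow the keratins. Krt87, Padi3 and Crym, named after their values were seen, followed them in part. They were at 243, 208 and 221 in control water replicate 2 and 80.8, 53 and 21.6 in knockout olive oil/acetone replicate 2. In replicate 3 of that group they were at 10.4, 12.3 and 7.55, beside at most 10.9, 6.97 and 7.69 in the other 7 libraries. Over the 15 genes of the list in all files, the median log2 value relative to each gene's median was 2.46, 1.85 and 0.34 in these 3 libraries. Others differed: Hephl1 was highest, at 363, in knockout water replicate 2, and Ly6g6e, at 628, in knockout olive oil/acetone replicate 2.

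Of 42 follicle signalling and matrix genes that are no members, 40 were tested and 0 called in controls, 2 higher and 6 lower in knockouts, and 0 in the other comparisons. Shares called over all genes tested were 0.0627% in controls, 13.4% in knockouts and 0% in the other comparisons. The 6 lower were Bmp2, Cux1, Ovol1, Dll1, Notch1 and Grhl1, and Sox21 was among the higher; these were named after their calls were seen. The 3 genes of the list with the highest means were Hr, Notch1 and Gata3; Hr, needed for hair regrowth, lay between 10058 and 16069.

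**Figure D5:**
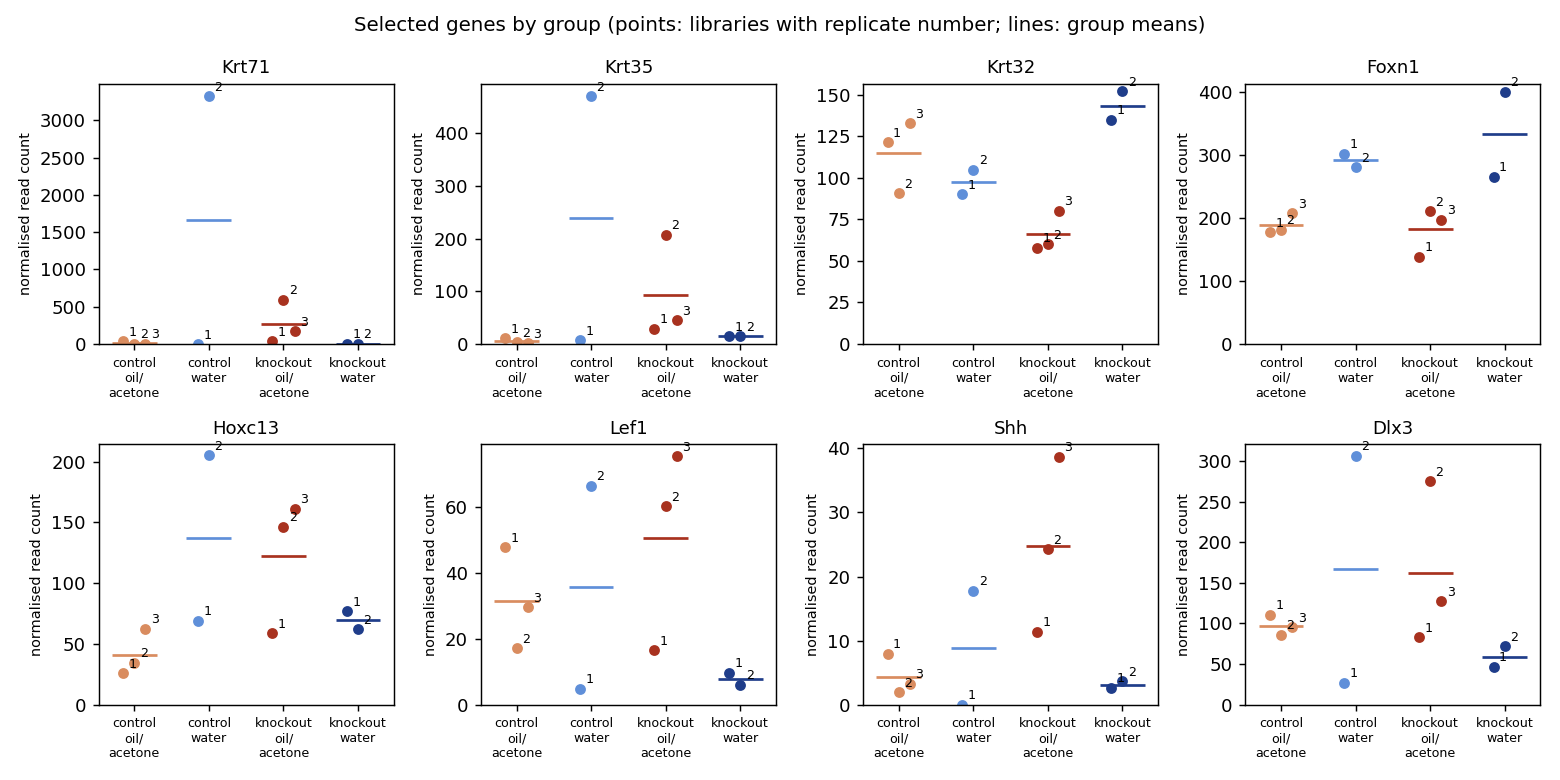
Normalised read count of 8 genes in each library (points with replicate numbers) by group, with group means as lines. Krt71, Krt35, Hoxc13 and Dlx3 are highest in control water replicate 2, Shh and Lef1 in knockout olive oil/acetone replicate 3, and Foxn1 is lower in all 6 olive oil/acetone libraries than in all 4 water libraries.

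Markers of other follicle and skin cells moved with the member genes in part, and their part in the result was not tested. For each list, the level given is the median over its genes of log2(value + 1) relative to each gene's median over libraries. Dermal papilla genes (10 of 12 listed in all files) were at 0.81, 1.24 and 1.45 in control water replicate 2 and knockout olive oil/acetone replicates 2 and 3, and at -1.74 to 0.40 in the other 7. Their summed level was 434, 607 and 772 in the 3 libraries and 90.3 to 342 in the others; at most 1 of the 10 was at 0 in any library. Of the 10, 3 (Lepr, Crabp1 and Alx4, the last named after its call was seen) rose under olive oil/acetone in knockouts. Their group means under olive oil/acetone were 75.8, 77.3 and 20.1 in controls and 83.1, 76.9 and 67.9 in knockouts. Under water they were 26.3, 17.8 and 17.3 in controls and 3.7, 2.1 and 1.05 in knockouts. Of all genes tested, 13.4% were called in knockouts, beside which the counts of each list are to be read. Fibroblast genes were at -0.55, -0.16 and -1.19 in the 3 libraries and -0.25 to 1.01 in the others, and 1 of 6 (Lum) fell in knockouts. Melanocyte genes were at 0.51, 0.08 and 0.43 against -1.06 to 0.52, sebocyte genes at 0.61, 1.32 and 0.04 against -0.94 to 0.14, and endothelial genes at 0.26, 1.31 and 0.81 against -1.38 to 0.82. Skeletal muscle genes were at 0.89, -0.25 and -0.58 against -1.01 to 2.26, highest in control water replicate 1. Under olive oil/acetone in knockouts, 2 of 5 endothelial genes rose (Pecam1 by 1.74 and Egfl7 by 2.38, adjusted p = 0.0406 and 0.0235 by limma), as did 1 of 9 sebocyte genes (Elovl3 by 2.36, adjusted p = 0.0456 by limma), and 0 melanocyte or skeletal muscle genes were called.

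Some markers of the outer layers were called for treatment in knockouts, where 13.4% of all genes were called. Of 11 companion layer and outer root sheath genes, 3 rose under olive oil/acetone in knockouts: Krt75, the companion layer keratin, by 1.99, Krt6a by 2.72 and Krt6b by 7.99 (adjusted p = 0.0379, 0.0154 and 0.0147 by limma). Krt75 was at 334, 446 and 373 under olive oil/acetone and 156 and 802 under water in controls, and at 497, 481 and 787 under olive oil/acetone and 128 and 162 under water in knockouts, so that control water replicate 2 and knockout olive oil/acetone replicate 3 were highest and knockout olive oil/acetone replicate 1 came next. Proliferation genes rose in 14 of 16 in knockouts, beside 13.4% of all genes called in either direction. Mki67 was at 4362, 3430.2 and 5637 against 1281 and 1296. In controls 0 of 16 were called, beside 0.0627% of all genes. There 15 of 16 differences were above 0, and 9 had an unadjusted p under 0.05 by limma, beside 12.9% of all genes. For the interaction 0 of 16 were called. Control water replicate 2, highest in the hair genes, was not among the 6 libraries with the highest Mki67. Interfollicular keratinocyte genes were at -0.53 to 0.48 in all 10 libraries, with 1 of 8 higher (Krt1) and 1 lower (Krt15) in knockouts.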

How the data were processed

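The deposited values are a normalized signal: per the submitters' processing notes, the authors trimmed reads with Trimmomatic 0.38, counted them with featureCounts 2.0.0 and used DESeq2 1.26.0 on GRCm38/mm10. Aligner, annotation release and strandedness: not given in the sources used here. Each value is a whole multiple of what 1 read is worth in its library (100% of values within 0.1 read), which gave 15914663 to 21812292 reads a library. Genes a file does not list were treated as missing.

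Values were rescaled by median-of-ratios factors. Genes listed in all 10 files (15987) with at least 10 in at least 2 libraries (15958) were fitted on log2(value + 1) with limma 3.58.1 in R 4.3.3, as 4 group means with 5 contrasts and Benjamini-Hochberg adjustment at 0.05. Fold values are on that log2 scale, which understates changes of low genes. Alternatives were edgeR 4.0.16 and DESeq2 1.42.0 on the recovered reads, other scalings, pseudocount 10, no filter, other gene and group sets, a replicate block, each library left out and, added after the data were seen, 3 libraries left out. The fit was tested on simulated data. All 17983 identifiers matched GENCODE M21; promoters came from RefSeq (GRCm38.p6). Proteins were not analysed here. Intervals and floors (3 reads) cover counting error only.

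Named are all listed members, the Krtap genes listed in all files with the highest means, the 3 highest of each comparison list, called genes of lists under 12 genes, and the 12 genes most like the keratin profile; other names were chosen after their values were seen. Members and lists were chosen with earlier results of these data known. Some genes that the rule names are not reported here.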

Additional observations from a re-analysis of the deposited data

Results flagged for a closer look

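Among the genes that were not tested are the 25 hair genes that the water files alone list (23 Krtap genes, Krt34 and Krt82). Their summed reads were 671 in control water replicate 2, against 3 in control water replicate 1 and 2 and 7 in the knockout water libraries. The 23 Krtap genes are members only because these files list them, and nearly all reads are from that library. This contrast therefore follows largely from the listing and is not a separate result. Among them, Krtap1-5 had the highest normalised count in that library, at 63.7, and Krtap4-16 the lowest, at 10.3. No group with 4 or more libraries exists, so single libraries could not be checked for distance from their group.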

How the results depend on the processing

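Of 392 alternative values for 20 pairs of a named gene and a comparison, 348 kept both direction and side of the threshold, 19 became called, 15 lost their call and 10 changed direction; causes were not tested. In controls, genes called were 352 with DESeq2 (7 of them hair genes), 58 with the replicate block and 25 without the 3 libraries with the highest hair gene levels, where Krt71 was at 3.29, Tchh at 0.39 and Krtap8-1 at 0. Leaving out 1 library gave 6 (control olive oil/acetone replicate 2) to 470 (replicate 1) genes, with 18 without control water replicate 1, 0 to 2 hair genes, and -8.41 to 3.29 for Krt71, -4.61 to 0.39 for Tchh and -8.38 to 0 for Krtap8-1, with both ends from the 2 control water libraries. In knockouts, genes called were 3610 with DESeq2, 3830 with the compared groups alone, 3884 with genes listed in both groups and 37 without the 3 libraries; hair genes called were 5, 10, 9 and 0, with 1 by edgeR and 0 with equal totals. Leaving out 1 library gave 9 (knockout water replicate 1) to 3130 (control water replicate 2) genes and 0 to 10 hair genes, with 839 genes without control olive oil/acetone replicate 2. For genotype under olive oil/acetone, DESeq2 called 168 genes and the compared groups alone, or genes listed in both, 3; leaving out 1 library gave 0 to 50, the latter without knockout olive oil/acetone replicate 1. For genotype under water, DESeq2 called 6 genes, leaving out 1 library 0 to 1, Krt71 was at 1.51 and Krtap8-1 at 0 without the 3 libraries, and leaving out 1 library gave -10.19 to 1.51 and -8.38 to 0. For the interaction, DESeq2 called 169 genes and 9 hair genes, and leaving out 1 library 0 to 74 and 0 to 9. The relative level of shaft genes in knockout olive oil/acetone replicate 2 was 1.52 (log2) over members with a mean of 50 or more, against 3.12 over those listed in all files. Only Krt35 and Krt32 reach that mean, and Krt32 was the exception among the shaft keratins. The lower value therefore says nothing about shaft genes with more reads as a set.

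After each gene's group mean was subtracted, same-numbered libraries correlated from -0.10 to 0.45, and libraries with different numbers from -0.45 to 0.35. In a group of 2 libraries these deviations are exact opposites, so many pairs mirror each other and the ranges are not independent. The labels do not say what same-numbered libraries share beyond the number, and a shared batch was not tested. With the replicate block, 2766 genes were called in knockouts, Krt32 and Foxn1 remained called (adjusted p = 0.0154 and 0.0264 by limma), and 0 genes were called in the 3 comparisons that involve genotype. Groups of 2 or 3 libraries and reads near 0 in most libraries limit what could be detected for the structural genes.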
